A study of Mus musculus with 10 samples.

Results

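The genes described here encode cullins and 4 families of proteins that bring substrates to them, as transcribed in the left ventricle of the infarcted mouse heart. Members were all rows of the gene table whose symbol began with Asb, Fbxo, Klhl, Kbtbd or Cul followed by a digit, with 2 antisense rows left out. This gave 109 of the 49585 rows, made up of 8 cullins, 37 Fbxo genes, 18 Asb genes, 37 Klhl genes and 9 Kbtbd genes. Male mice of the outbred ICR stock underwent experimental myocardial infarction, and RNA was taken 4 weeks later from the left ventricle without atria, valves or right ventricle. The labels place 5 libraries in a group given phosphate-buffered saline (MI+PBS) and 5 in a group given a treatment called 4FM3 (MI+4FM3). The series title concerns direct reprogramming, the conversion of 1 differentiated cell type into another, with adeno-associated virus (AAV). The sources used here do not say what 4FM3 contains, how old the mice were or from which event a time label of 8 weeks counts. Every heart was infarcted, and no uninjured heart and no group given an empty vector was compared here, so the effect of a vector as such and that of 4FM3 cannot be told apart. Whether each library is a separate animal is not stated, and p-values therefore measure the spread between libraries.

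Cullins are the scaffolds of the largest class of ubiquitin ligases, enzymes that mark proteins for destruction or for altered function. A cullin holds a RING protein at 1 end, which recruits the ubiquitin-carrying enzyme, and an exchangeable substrate adaptor at the other. CUL1 takes F-box proteins (Fbxo) through SKP1, CUL2 and CUL5 take SOCS-box proteins such as the ankyrin-repeat Asb family through elongins, and CUL3 binds BTB proteins such as the Klhl and Kbtbd families directly. Attachment of the small protein NEDD8 switches a cullin on, and the COP9 signalosome removes it. In heart and skeletal muscle these ligases take part in turnover of the sarcomere, the contractile unit, and several adaptors are made mainly in striated muscle. The F-box protein atrogin-1, encoded by Fbxo32, is the best known of them, as a marker of muscle wasting.

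The 10 libraries held between 6634159 and 7711177 counts, of which the members took 0.444% to 0.551%. Expression is given as CPM, counts relative to a library size scaled with the trimmed mean of M-values, and a count of 0 allows up to 3 counts, or 0.371 to 0.481 CPM, for counting error only. The tissue label was checked with 12 cardiomyocyte markers, none of them at 0, whose summed level was 42994 to 61042 CPM in PBS and 72758 to 93189 CPM in 4FM3. The summed level of 11 fibroblast and matrix markers was 12538 to 15477 CPM in PBS and 4961 to 8747 CPM in 4FM3. In bulk tissue, fewer cells of a type and less RNA per cell cannot be told apart. Some libraries stood apart: Sftpc, a lung surfactant gene, reached 574.6 and 499.0 CPM in PBS replicates 2 and 3 and 11.9 CPM in 4FM3 replicate 2, and had no count in the others. The 8 atrial markers summed to 3128 to 4067 CPM in PBS and 774.4 to 2601 CPM in 4FM3. They were mixed: in the test described below, 1 of the 7 tested was higher and 2 were lower. Their log2 fold changes ran from -1.455 to 1.56, with a median of 0.21.

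Of the 109 members, 89 passed the filter on low counts and were tested. Among these, 35 (39.3%) were higher in 4FM3 and 11 (12.4%) were lower at an adjusted p of 0.05 in edgeR's quasi-likelihood test. Without single libraries the higher count was 31 to 38 and the lower count 2 to 8. For all tested genes these counts were then 2317 to 2840 and 2206 to 2991. Over all 12906 tested genes 43.0% were called, 20.9% higher and 22.1% lower, so calls toward higher levels were more frequent among the members than in the background. The median log2 fold change of tested members was 0.10, beside -0.03 for all tested genes. In 28 members all 5 libraries of 4FM3 lay above all 5 of PBS and in 5 they lay below, against 14.1% and 13.4% of all tested genes, and 27.5% in either direction. Among members, 19 were called with a fitted change of at least 1.5-fold upward and 2 with one downward. Over all 12906 tested genes these counts were 985 and 1449. No member was called higher when the test was made against a 1.5-fold change, against 70 of all tested genes. Scaling by library size alone moved the median of all genes by -0.18, and members then split into 25 higher and 25 lower. Of all 12906 tested genes, 1540 were then higher and 4967 lower. These counts are the background for that scaling in the families and lists below.

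**Figure D1:**
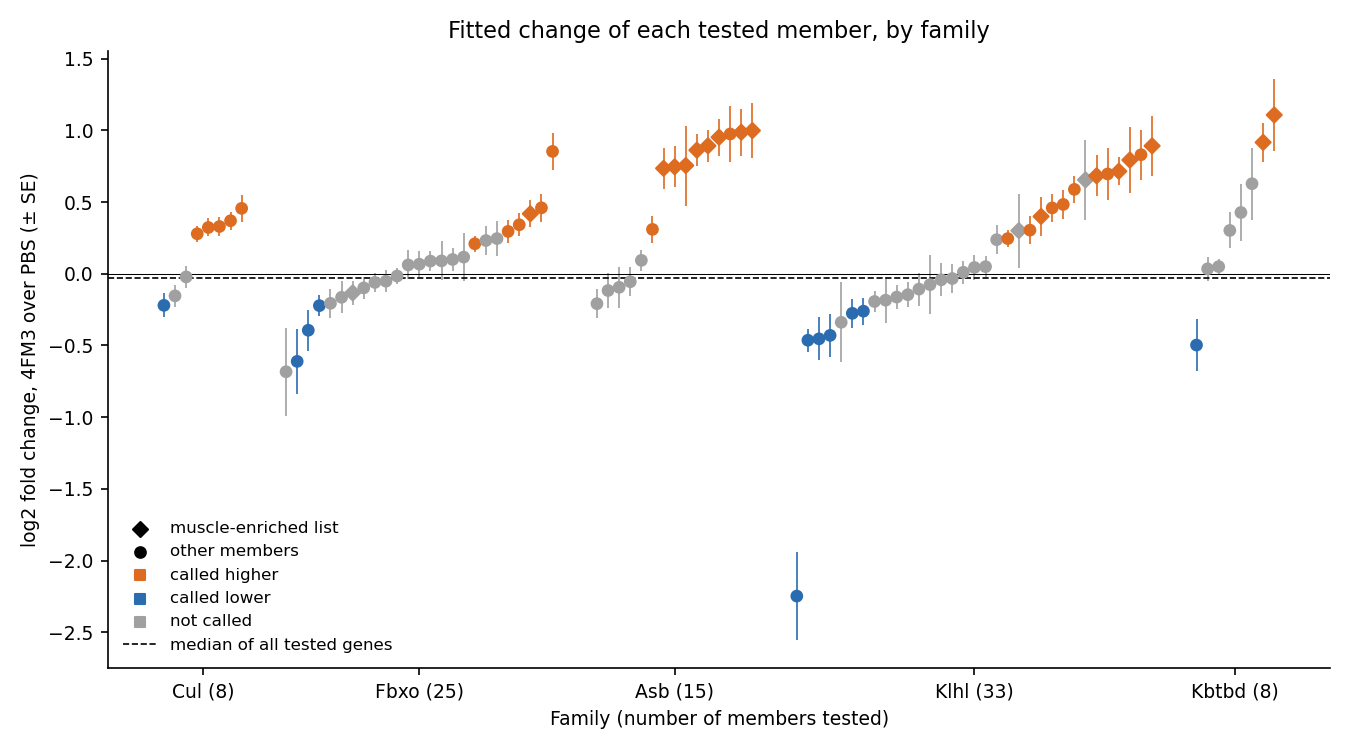
Fitted log2 fold change (4FM3 over PBS) with its standard error for each of the 89 tested members, ordered by size within each family on the horizontal axis. Diamonds are members of the muscle-enriched list, orange and blue mark members called higher and lower, and the dashed line is the median of all tested genes at -0.03. Klhl29 stands alone at -2.25, and the diamonds gather in the upper part of the Asb, Klhl and Kbtbd families.

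The 20 members outside the tests were Asb9, Asb16, Asb17, Fbxo2, Fbxo15, Fbxo16, Fbxo24, Fbxo27, Fbxo36, Fbxo39, Fbxo41, Fbxo43, Fbxo44, Fbxo47, Fbxo48, Kbtbd6, Klhl1, Klhl10, Klhl14 and Klhl35. Of these, 4 (Asb9, Asb17, Fbxo43 and Klhl1) had no count in any library, and the highest group mean among the 20 was 1.29 CPM. The order of levels among members was read as CPM per kilobase of exon, averaged over all libraries. Asb2 led at 96.1, followed by Fbxo40 at 88.9, Klhl41 at 52.9, Fbxo32 at 50.5, Klhl24 at 45.9, Klhl31 at 44.8 and the highest cullin, Cul3, at 34.4 CPM per kilobase. Each neighbouring pair in that order overlapped in the range of its libraries. Of these leaders, 5 are on the muscle-enriched list, and the other two are Klhl24, whose human counterpart is linked to cardiomyopathy, and Cul3.

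Cullins shifted upward by modest amounts, with 5 of 8 higher and 1 lower (62.5% and 12.5%, against 20.9% and 22.1% of all tested genes), and a median log2 fold change of 0.30. With scaling by library size alone the split was 3 higher and 3 lower with a median of 0.13, and Cul4b and Cul9 were then called lower. In the 5 of 8 that rose, all 4FM3 libraries lay above all PBS libraries, against 14.1% of all tested genes. Cul3, the scaffold for the Klhl and Kbtbd adaptors, measured 151.0, 139.2, 156.4, 146.7 and 138.9 CPM in PBS and 200.6, 173.9, 201.1, 189.1 and 181.7 CPM in 4FM3. The lowest 4FM3 library was above the highest PBS library, and the fitted change was 1.29-fold (log2 0.37, SE 0.0632, adjusted p = 0.0008). Cul5, a partner of the Asb proteins, showed the largest change in the family. It measured 93.9, 86.3, 92.7, 89.0 and 76.3 CPM in PBS and 123.2, 100.2, 139.1, 131.2 and 107.8 CPM in 4FM3, a rise of 1.37-fold (log2 0.46, SE 0.0932, adjusted p = 0.0022). PBS replicate 5 and 4FM3 replicate 2 were the lowest of their groups. Cul1, the scaffold for F-box proteins, rose from 82.6 ± 3.13 to 100.2 ± 4.37 CPM (SD, n = 5 in each group here and below). Cul2, the other scaffold that uses elongins, rose from 46.7 ± 2.93 to 58.7 ± 3.85 CPM. The calls of Cul1 and Cul2 were lost with scaling by library size alone, where their log2 fold changes were 0.10 and 0.15.

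Cul4a and Cul4b encode close paralogs that both bind DDB1 and its adaptors, and they differed in these libraries. Cul4a measured 120.8, 111.9, 115.4, 128.3 and 109.0 CPM in PBS and 154.0, 146.1, 150.3, 147.6 and 134.4 CPM in 4FM3. All 4FM3 libraries lay above all PBS libraries, with a fitted change of 1.25-fold (adjusted p = 0.0016). Cul4b measured 30.2, 32.2, 36.5, 33.2 and 33.4 CPM in PBS and 25.9, 30.7, 31.2, 30.8 and 30.1 CPM in 4FM3. Its groups overlapped and its log2 fold change of -0.15 (SE 0.0773) did not pass (adjusted p = 0.12). The log2 ratio of Cul4a to Cul4b within a library, which does not depend on scaling, was 1.82 ± 0.149 in PBS and 2.30 ± 0.156 in 4FM3. That difference of 0.48 had p = 0.00794 in an exact two-sided permutation test, the smallest that 252 assignments allow. After adjustment over 4 ratios it was 0.0106. The ratios were chosen after their values were seen, and the adjustment does not cover that choice.

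Cul7, which forms a ligase with the F-box protein FBXW8 and is mutated in a human growth disorder, was called lower at the edge of the threshold. It went from 41.4 ± 1.26 to 35.5 ± 4.54 CPM (log2 fold change -0.22, adjusted p = 0.0499). The groups overlapped, 4FM3 replicate 2 lay within the PBS range, and the call was kept in 4 of 20 alternative settings. Cul9, a large cytoplasmic relative that binds p53, was at 38.0 ± 3.58 and 37.5 ± 2.09 CPM, with a log2 fold change of -0.02 that did not pass and whose sign changed when single libraries were left out.

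**Figure D2:**
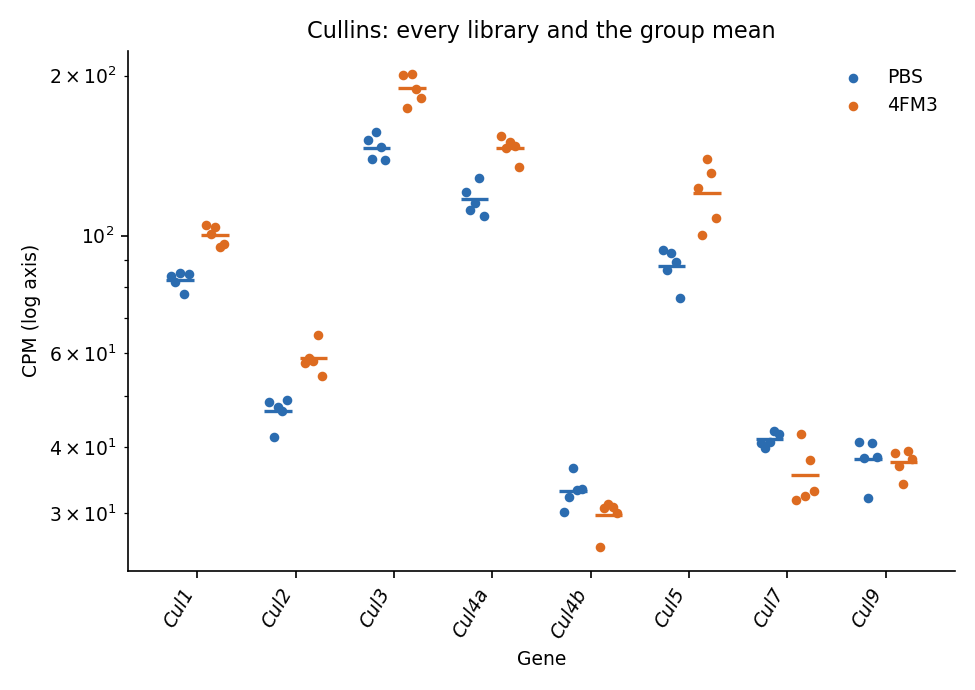
CPM on a log axis for each cullin gene in every library, with PBS in blue, 4FM3 in orange and the horizontal bar at the group mean. The groups separate for Cul1, Cul2, Cul3, Cul4a and Cul5 and overlap for Cul4b, Cul7 and Cul9.

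Most adaptors made mainly in striated muscle rose. The list of muscle-enriched members held 20 genes (Asb2, Asb5, Asb10, Asb11, Asb12, Asb14, Asb15, Asb16, Asb18, Fbxo32, Fbxo40, Kbtbd12, Kbtbd13, Klhl30, Klhl31, Klhl33, Klhl34, Klhl38, Klhl40 and Klhl41), of which all but Asb16 were tested. Of these 19, 16 (84.2%) were higher in 4FM3 and 0 were lower, against 20.9% and 22.1% of all tested genes. Their median log2 fold change was 0.76. At an unadjusted p under 0.05, and by DESeq2 and limma, 0 were lower too, and with scaling by library size alone 14 were higher and 1, Fbxo32, was lower. The 3 that did not pass were Fbxo32, Klhl33 and Klhl38. In 11 of the 19 all 4FM3 libraries lay above all PBS libraries, against 14.1% of all tested genes. The 70 tested members outside the list included 19 higher (27.1%) and 11 lower (15.7%), with a median of 0.04. Cardiomyocyte markers moved the same way, with 11 of 12 higher and a median log2 fold change of 0.86, and their part in the rise of the muscle-enriched members was not tested. Fast skeletal myosin Myh1, a marker of skeletal muscle, was at 8.43 and 10.3 CPM in PBS replicates 2 and 4 and at 0.521 CPM or below elsewhere. The summed level of 12 skeletal muscle markers was 393.0 to 700.8 CPM in PBS and 576.9 to 1334 CPM in 4FM3, 2 of the 12 had no count in any PBS library. The 1 of them that was tested, Acta1, was higher (log2 fold change 0.72, adjusted p = 0.0384), with overlapping groups. The others did not pass the filter on low counts, and which tissue gave the Acta1 counts was not tested.

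Some libraries were often the lowest or highest of their group over the 16 muscle-enriched members that rose. PBS replicate 5 was the lowest PBS library for 12 of the 16 and PBS replicate 1 the highest for 9. Among 4FM3 libraries, replicate 5 was the lowest for 9, while the highest was replicate 4 for 6 and replicate 3 for 5. The summed cardiomyocyte markers were lowest in PBS replicate 5 within its group. They were highest there in replicate 4, at 61042 CPM, beside 56701 CPM in replicate 1. Within 4FM3 they were 82495 CPM in replicate 5 and 72758 CPM in replicate 2, the lowest.

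**Figure D3:**
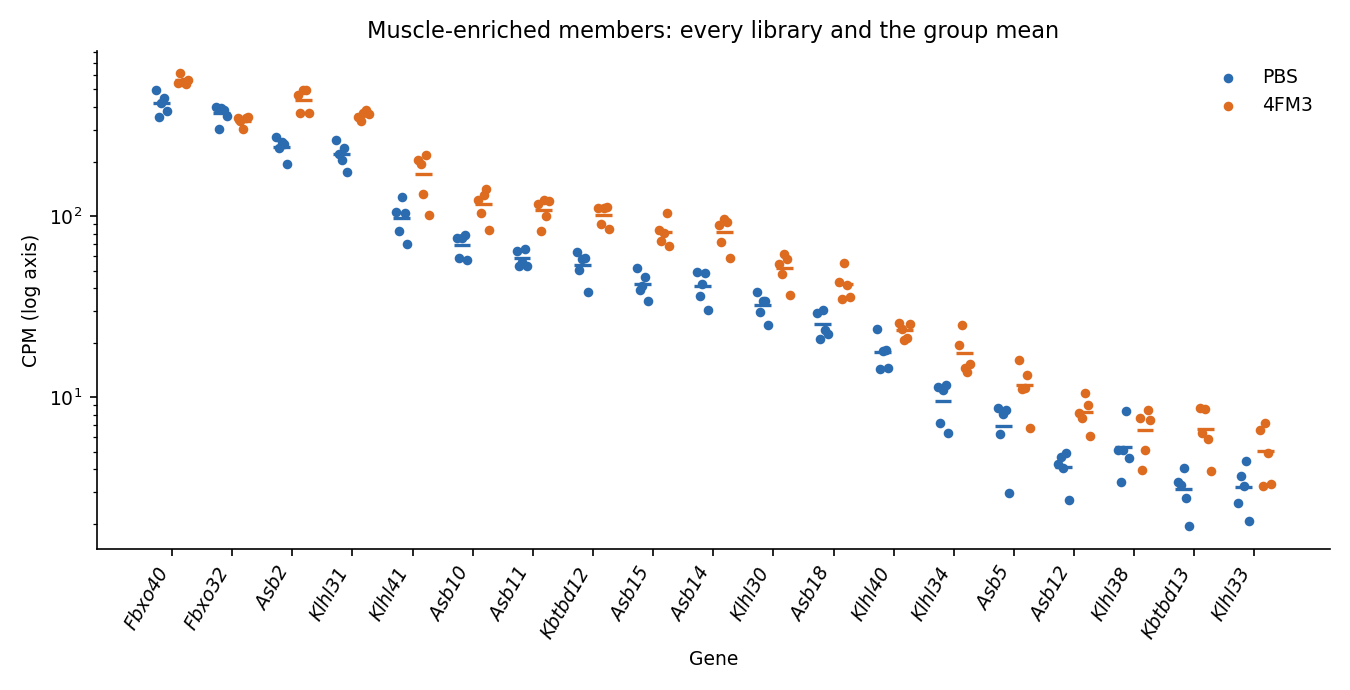
CPM on a log axis for the 19 tested muscle-enriched members in every library, ordered by mean level, with PBS in blue, 4FM3 in orange and bars at the group means. The 4FM3 mean lies above the PBS mean for every gene shown but Fbxo32.

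Among Asb genes, 10 of 15 tested (66.7%) were higher and none was lower, against 20.9% and 22.1% of all tested genes. The family median log2 fold change was 0.75. At an unadjusted p under 0.05, and by DESeq2 or limma, 0 were lower as well, and with scaling by library size alone 8 were higher and 1, Asb3, was lower. Asb2 (chr12:103321142-103356001, mm10) encodes an adaptor that targets filamins, actin crosslinkers, in differentiating muscle cells. It measured 272.2, 237.9, 255.2, 248.8 and 193.5 CPM in PBS and 466.9, 369.2, 494.3, 494.8 and 370.3 CPM in 4FM3. Every 4FM3 library exceeded every PBS library, and replicates 2 and 5 were the lower ones within 4FM3. The rise was 1.82-fold (log2 0.86, SE 0.114, adjusted p = 0.0003). Filamin A mRNA, Flna, fell from 762.7 ± 113 to 456.6 ± 60.3 CPM, and filamin C, Flnc, the striated muscle form, was at 1288 ± 177 and 1207 ± 235 CPM and did not pass.

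The striated muscle Asb genes at middle levels behaved alike. Asb11 measured 64.2, 52.8, 55.7, 66.0 and 53.1 CPM in PBS and 115.8, 82.5, 122.4, 100.5 and 120.5 CPM in 4FM3, a rise of 1.86-fold (SE 0.110 on the log2 scale, adjusted p = 0.0003). Asb14 measured 49.2, 36.1, 42.2, 48.4 and 30.1 CPM in PBS and 89.3, 71.5, 96.0, 93.1 and 59.0 CPM in 4FM3, a rise of 1.98-fold. Replicate 5 was the lowest library of both groups for Asb14 but not for Asb11, and neither gene's groups overlapped. Asb15 rose 1.94-fold to 81.7 ± 13.6 CPM, Asb10 rose 1.68-fold to 116.3 ± 23.1 CPM and Asb18 rose 1.66-fold to 42.1 ± 8.11 CPM, all without overlap. Asb12, at 4.14 ± 0.864 and 8.30 ± 1.68 CPM, had the largest fitted change of the Asb genes tested (log2 0.999, SE 0.193). Asb5 rose from 6.90 ± 2.40 to 11.7 ± 3.41 CPM with overlapping groups (adjusted p = 0.0460), and it kept that call in 8 of 20 alternative settings.

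Outside the muscle-enriched list, Asb4, known from embryonic vessels, rose from 3.25 ± 0.707 to 6.41 ± 1.22 CPM without overlap (log2 fold change 0.98). Asb8 rose from 68.3 ± 11.0 to 84.7 ± 2.44 CPM with overlap (adjusted p = 0.0187), a call that was kept in 15 of 20 alternative settings and lost, among others, without PBS replicate 2 and with scaling by library size alone. The other Asb genes tested, Asb1, Asb3, Asb6, Asb7 and Asb13, lay between -0.21 and 0.09 on the log2 scale and did not pass.

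Promoter windows are shown for 4 muscle-enriched adaptors that rose and that carry a match to the motif of MEF2, a transcription factor family of muscle genes. The windows run from 250 bases before to 50 bases after a RefSeq transcript start (GRCm38.p6, the assembly named mm10), read 5′ to 3′ on the gene's strand, and the MEF2 match is in capitals. They lie at chrX:95478080-95478379 on the minus strand (Asb12), chr1:90014617-90014916 on the minus strand (Asb18), chr6:88627380-88627679 on the minus strand (Kbtbd12) and chr2:69669870-69670169 on the plus strand (Klhl41).
Asb12: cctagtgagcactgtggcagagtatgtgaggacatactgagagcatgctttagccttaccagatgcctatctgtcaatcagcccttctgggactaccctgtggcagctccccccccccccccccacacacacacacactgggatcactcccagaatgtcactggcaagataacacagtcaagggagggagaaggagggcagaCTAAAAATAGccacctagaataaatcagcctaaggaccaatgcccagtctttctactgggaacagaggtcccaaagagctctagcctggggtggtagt
Asb18: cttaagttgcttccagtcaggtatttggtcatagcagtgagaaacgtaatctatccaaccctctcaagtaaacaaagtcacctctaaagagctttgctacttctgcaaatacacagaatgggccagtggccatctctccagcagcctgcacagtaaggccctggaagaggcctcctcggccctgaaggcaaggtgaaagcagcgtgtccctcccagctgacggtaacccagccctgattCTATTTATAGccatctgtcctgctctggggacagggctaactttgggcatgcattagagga
Kbtbd12: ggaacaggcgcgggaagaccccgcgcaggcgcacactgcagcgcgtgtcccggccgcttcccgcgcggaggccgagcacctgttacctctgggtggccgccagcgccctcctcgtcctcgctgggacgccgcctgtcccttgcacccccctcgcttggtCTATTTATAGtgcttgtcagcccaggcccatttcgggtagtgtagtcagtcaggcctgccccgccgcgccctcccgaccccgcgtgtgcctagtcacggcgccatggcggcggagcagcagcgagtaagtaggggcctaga
Klhl41: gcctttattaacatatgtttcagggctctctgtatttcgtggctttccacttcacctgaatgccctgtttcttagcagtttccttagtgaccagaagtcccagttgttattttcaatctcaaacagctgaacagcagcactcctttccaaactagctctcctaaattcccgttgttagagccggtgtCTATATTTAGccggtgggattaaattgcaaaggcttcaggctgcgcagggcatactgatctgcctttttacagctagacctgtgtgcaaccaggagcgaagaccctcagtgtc
The matches end 38, 1, 81 and 53 bases upstream of the start in that order. Both strands of each window were searched. The MEF2 motif was found in 6 of the 17 muscle-enriched members with a window (35.3%), which besides these 4 were Asb16 and Klhl33, and in 0 of the 71 other members with a window. Over all genes with a window it was found in 0.636%, and over all windows in 0.557%. The forkhead motif GTAAACA was in 2 of the 17 and 1 of the 71, against 4.05% of all genes with a window (3.65% of windows), and matches of different motifs may share bases. The E-box CANNTG was in 16 of the 17 and 45 of the 71, against 74.99% of all genes with a window (72.3% of windows). A match describes letters in the window and no binding was measured.

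F-box genes were mixed, with 6 of 25 tested higher, 3 lower and a median log2 fold change of 0.07. The share called higher, 24%, was near the 20.9% of all tested genes. With scaling by library size alone 3 were higher and 11 lower, with a median of -0.11, and without PBS replicates 2 and 3 the counts were 5 and 0. Of all 13051 genes tested without those libraries, 1853 were higher and 1668 lower. Fbxo32 (chr15:58175879-58214932, mm10), which encodes atrogin-1, measured 401.2, 303.3, 396.6, 385.6 and 357.4 CPM in PBS and 346.5, 336.2, 302.0, 345.7 and 351.4 CPM in 4FM3. The 4FM3 range lay almost wholly within the PBS range, PBS replicate 2 and 4FM3 replicate 3 being the low libraries. Its log2 fold change of -0.13 (SE 0.0843) did not pass (adjusted p = 0.22), although with scaling by library size alone it was called lower at -0.31. Fbxo40 (chr16:36963460-36990467, mm10), a muscle-specific F-box gene whose product targets the insulin receptor substrate IRS1, measured 498.8, 353.8, 420.5, 446.2 and 380.7 CPM in PBS and 545.1, 613.1, 547.1, 534.8 and 566.6 CPM in 4FM3. All 4FM3 libraries were above all PBS libraries, a rise of 1.34-fold (log2 0.42, SE 0.0926, adjusted p = 0.0035). That call was lost when PBS replicates 2 and 3 and 4FM3 replicates 2 and 5 were all left out, at a log2 fold change of 0.29. Of the libraries left out there, only 4FM3 replicate 5 had no Sftpc count.

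The ratio of Fbxo32 to Fbxo40 within a library separated the groups. On the log2 scale it was -0.31, -0.22, -0.08, -0.21 and -0.09 in PBS and -0.65, -0.87, -0.86, -0.63 and -0.69 in 4FM3. The mean fell by 0.56, with p = 0.00794 in the exact permutation test and 0.0106 adjusted over the 4 ratios. Trim63, which encodes the RING ligase MuRF1 and is the usual companion of Fbxo32 as a marker of muscle wasting, rose from 113.5 ± 20.3 to 162.2 ± 20.1 CPM (log2 fold change 0.51, adjusted p = 0.0054) with overlapping groups. The log2 ratio of Fbxo32 to Trim63 went from 1.71 ± 0.179 to 1.06 ± 0.191, also without overlap (p = 0.00794, exact permutation test). These ratios pair Fbxo32, which was not called, with genes called higher, and they were chosen after their values were seen. Adjustment over the 4 ratios does not cover that choice.

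**Figure D4:**
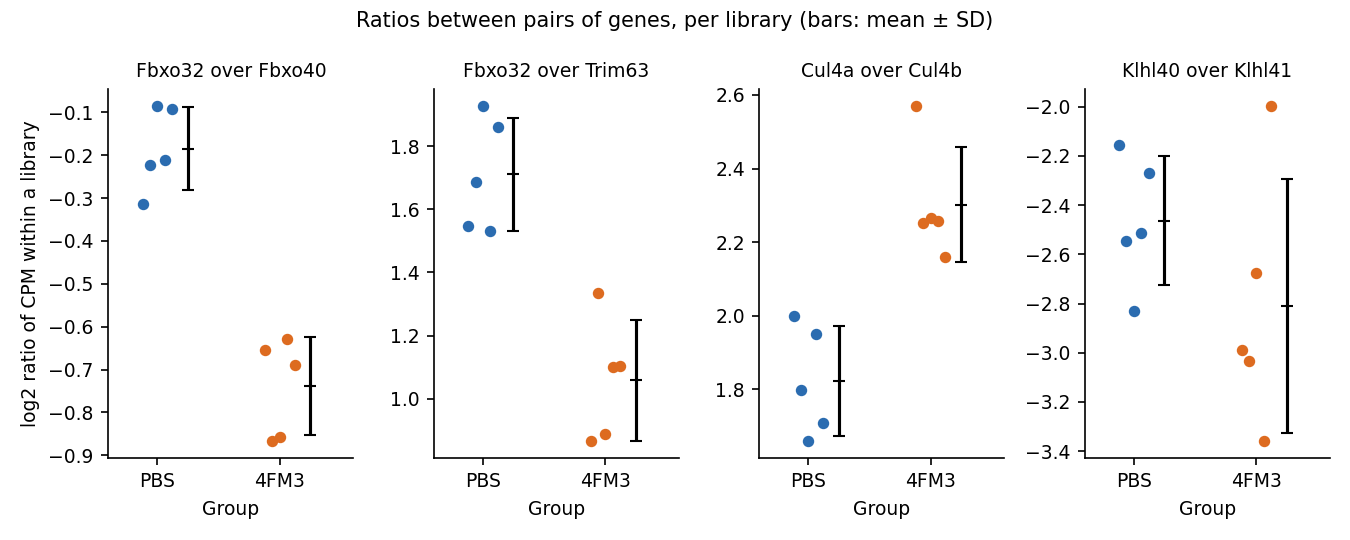
Log2 ratio of CPM between pairs of genes within each library, with PBS in blue, 4FM3 in orange and black bars for the mean ± SD of 5 libraries. The groups do not overlap for Fbxo32 over Fbxo40, Fbxo32 over Trim63 and Cul4a over Cul4b, and they overlap for Klhl40 over Klhl41.

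Fbxo31, whose product targets cyclin D1 after DNA damage, had the largest rise among F-box genes tested. It measured 18.6, 16.1, 16.1, 22.9 and 17.8 CPM in PBS and 36.5, 27.3, 40.7, 31.6 and 29.5 CPM in 4FM3, an increase of 1.81-fold without overlap (log2 0.85, SE 0.129, adjusted p = 0.0004). Fbxo31 is not on the muscle-enriched list. Fbxo21 rose from 43.3 ± 4.54 to 59.5 ± 7.64 CPM, Fbxo8 from 28.9 ± 1.55 to 36.7 ± 3.38 CPM and Fbxo3 from 101.1 ± 7.05 to 124.1 ± 13.7 CPM. Fbxo18, a DNA helicase with an F-box, rose from 81.0 ± 2.95 to 93.6 ± 3.78 CPM. The calls of Fbxo3, Fbxo8 and Fbxo18 were lost with scaling by library size alone. The lower calls were Fbxo17 (log2 fold change -0.61, from 2.998 ± 0.717 to 1.96 ± 0.334 CPM), Fbxo33 (-0.39) and Fbxo42 (-0.22), and they were kept in 3, 10 and 8 of 20 alternative settings. The 16 that did not pass lay between -0.68 and 0.25. The lowest was Fbxo5, an inhibitor of the anaphase-promoting complex, at 2.19 ± 0.607 and 1.36 ± 0.533 CPM (adjusted p = 0.0877).

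Among Klhl genes 12 of 33 tested were higher and 6 lower, with a median log2 fold change of 0.04. These are 36.4% and 18.2% of the family, against 20.9% and 22.1% of all tested genes. With scaling by library size alone 9 were higher and 9 lower, with a median of -0.13, and without PBS replicates 2 and 3 the counts were 9 and 2. Of all 13051 genes tested without those libraries, 1853 were higher and 1668 lower. Klhl31, a muscle adaptor whose loss in mice causes a myopathy, measured 263.8, 219.4, 203.1, 238.9 and 175.6 CPM in PBS and 353.6, 334.5, 368.7, 385.4 and 365.1 CPM in 4FM3. All 4FM3 libraries exceeded the highest PBS library, replicate 1, a rise of 1.64-fold (log2 0.72, SE 0.0980, adjusted p = 0.0003). Klhl40 and Klhl41 encode sarcomere adaptors that stabilise nebulin and are mutated in human nemaline myopathy, a thin-filament disease. Klhl41 (chr2:69670120-69684230, mm10) measured 105.6, 82.9, 127.7, 103.4 and 70.2 CPM in PBS and 204.6, 194.2, 132.2, 216.8 and 101.5 CPM in 4FM3. Its groups overlapped because 4FM3 replicate 5 lay within the PBS range, and the rise was 1.73-fold (log2 0.79, SE 0.227, adjusted p = 0.0177). Klhl40 rose from 17.7 ± 3.82 to 23.3 ± 2.37 CPM (log2 0.40, adjusted p = 0.0304) with overlap, and kept that call in 10 of 20 alternative settings. The log2 ratio of Klhl40 to Klhl41 was -2.46 ± 0.262 in PBS and -2.81 ± 0.516 in 4FM3 and did not pass (p = 0.214, exact permutation test). Without single libraries the difference ranged from -0.21 (p = 0.405, without 4FM3 replicate 4) to -0.55 (p = 0.0238, without 4FM3 replicate 5), by the same exact permutation test.

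Their thin-filament partners were measured beside them. Nebulin mRNA, Neb, was at 41.8 ± 23.4 and 54.5 ± 17.9 CPM and did not pass. Lmod3, a leiomodin stabilised by KLHL40, rose from 64.4 ± 12.3 to 91.6 ± 15.5 CPM. Of the other muscle-enriched Klhl genes, Klhl30 rose from 32.1 ± 5.01 to 51.6 ± 9.88 CPM with overlap and Klhl34 from 9.47 ± 2.52 to 17.6 ± 4.73 CPM without overlap. Klhl33 (3.19 ± 0.918 and 5.06 ± 1.82 CPM) and Klhl38 (5.31 ± 1.84 and 6.55 ± 1.91 CPM) did not pass, with adjusted p = 0.0727 and 0.365.

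Several Klhl genes outside the muscle list also rose. Klhl24, whose product limits intermediate filaments such as desmin in human heart muscle, had the highest CPM per kilobase of them. It measured 410.0, 347.7, 372.6, 413.2 and 322.7 CPM in PBS and 650.2, 510.1, 582.5, 559.8 and 504.0 CPM in 4FM3, without overlap and with a rise of 1.504-fold (SE 0.0943 on the log2 scale, adjusted p = 0.0006). Desmin mRNA, Des, was at 2565 ± 267 and 2313 ± 302 CPM and did not pass. Klhl23 rose from 26.8 ± 5.53 to 47.7 ± 10.01 CPM, 1.78-fold. Klhl3, which in the kidney targets WNK kinases, rose from 3.63 ± 0.527 to 5.91 ± 1.18 CPM, a call that was lost without PBS replicates 2 and 3. Klhl7 rose 1.40-fold and Klhl21, which acts with CUL3 in cell division, rose 1.37-fold. Klhl8 and Klhl9 rose by 0.30 and 0.25 on the log2 scale, and both calls were lost with scaling by library size alone. Klhl8 kept its call in 12 of 20 alternative settings and lost it without PBS replicate 2 or 5 or 4FM3 replicate 1 or 3.

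Klhl29 (chr12:5077472-5375682, mm10) was the member with the largest change in either direction. It measured 14.3, 15.6, 11.5, 15.6 and 24.1 CPM in PBS and 1.84, 5.37, 1.92, 2.62 and 5.06 CPM in 4FM3. Every 4FM3 library was below every PBS library, with replicates 2 and 5 the higher ones within 4FM3 and replicate 5 the highest within PBS. The fall was 4.75-fold (log2 -2.25, SE 0.305, adjusted p = 0.0003), and it was the only lower call that held against a 1.5-fold change. Klhl42, an adaptor for the microtubule-severing protein katanin, measured 26.04, 29.8, 29.6, 29.8 and 31.05 CPM in PBS and 19.9, 22.9, 23.1, 20.05 and 20.1 CPM in 4FM3, again without overlap (log2 -0.46, SE 0.0804, adjusted p = 0.0009). PBS replicate 1 was the lowest of its group. Among the 11 lower calls over all families, Klhl29 and Klhl42 were those kept without PBS replicates 2 and 3, at -2.38 and -0.44.

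The other lower calls in the family were Klhl6 (-0.45), an adaptor of lymphocytes that acts in B-cell receptor signalling, Klhl36 (-0.43), Klhl11 (-0.28) and Klhl26 (-0.26). Klhl6 went from 17.5 ± 3.26 to 12.8 ± 2.22 CPM. Macrophage markers, of which 7 of 10 were lower with a median of -0.65, summed to 826.4 to 1733 CPM in PBS and 748.2 to 909.4 CPM in 4FM3, and their part in the level of Klhl6 was not tested. The 15 Klhl genes that did not pass lay between -0.34 and 0.66 on the log2 scale.

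Of the Kbtbd genes, 2 of 8 tested were higher and 1 lower, with a median log2 fold change of 0.36, and both that rose are muscle-enriched. The share called higher, 25%, was near the 20.9% of all tested genes. Kbtbd12 measured 63.7, 50.2, 57.9, 58.9 and 37.9 CPM in PBS and 110.1, 89.9, 110.9, 112.1 and 84.3 CPM in 4FM3. Replicate 5 was the lowest of both groups, the groups did not overlap, and the rise was 1.89-fold (log2 0.92, SE 0.134, adjusted p = 0.0004). Kbtbd13, the third nemaline myopathy gene of the set, measured 3.38, 3.27, 4.09, 2.79 and 1.93 CPM in PBS and 8.74, 6.36, 8.65, 5.86 and 3.90 CPM in 4FM3. Its 4FM3 replicate 5 fell below the highest PBS library, and its fitted change of 2.16-fold (log2 1.11, SE 0.252, adjusted p = 0.0041) was the largest rise of any member tested. Kbtbd11 was lower, at 13.9 ± 3.77 and 9.82 ± 1.72 CPM (adjusted p = 0.0416), and kept that call in 9 of 20 alternative settings. Kbtbd2, Kbtbd3, Kbtbd4, Kbtbd7 and Kbtbd8 did not pass and lay between 0.03 and 0.63. Kbtbd4 shares 52.8% of its exon bases with Ptpmt1 on the opposite strand, and whether counting used the strand is not stated.

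Genes that work with these families were read from 9 further lists. Their counts are set against 20.9% higher and 22.1% lower among all tested genes. In the cullin-RING core and its adaptor links, 5 of 8 tested were higher and 0 lower. They included Skp1a, the link to F-box proteins (1.25-fold), Tceb1 and Tceb2, which encode the elongins that link SOCS-box proteins (1.29-fold and 1.15-fold), and the RING gene Rnf7 (1.28-fold). In neddylation and cullin exchange, 8 of 14 were higher and 0 lower. Nedd8 rose 1.28-fold, its conjugating enzyme gene Ube2m 1.31-fold and the neddylation cofactor gene Dcun1d1 1.26-fold. Dcun1d2, a paralog of Dcun1d1, measured 59.5, 50.7, 54.6, 61.7 and 40.3 CPM in PBS and 96.0, 80.1, 109.1, 98.5 and 70.8 CPM in 4FM3, a rise of 1.70-fold without overlap. Cand2, the muscle form of the cullin exchange factor, rose 1.27-fold, and Cand1, at 97.4 ± 3.69 and 89.1 ± 6.48 CPM, did not pass; the difference between them was not tested. In the COP9 signalosome 6 of 9 were higher and 0 lower, led by Cops3 at 1.38-fold, with Cops4 at 1.31-fold, Cops6 at 1.30-fold and Cops8 at 1.26-fold. At an unadjusted p under 0.05, and by DESeq2 or limma, these 3 lists also had 0 lower. With scaling by library size alone these 3 lists had 0 higher and 2 lower, 3 higher and 2 lower, and 3 higher and 0 lower; that scaling also took the count of all genes called higher from 2700 to 1540.

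Adaptors of the same classes that carry other names went in both directions, and their counts are set against 20.9% higher and 22.1% lower among all tested genes. Of 25 F-box genes with WD40 or leucine-rich repeats 3 were higher and 5 lower. Fbxl22, a cardiac F-box gene of the Z-disc, rose 1.47-fold, Fbxw7 rose 1.62-fold and Fbxw5 1.25-fold. Skp2, which targets the cell-cycle inhibitor p27, fell from 5.41 ± 0.984 to 2.64 ± 0.989 CPM, 2.04-fold lower. Of 26 other BTB adaptors 7 were higher and 3 lower, with Btbd1 (1.33-fold), Kctd9 (1.33-fold) and Rhobtb3 (1.32-fold) among the higher. Of 26 SOCS-box adaptors outside the Asb family 9 were higher and 4 lower, with Fem1a 1.598-fold, Spsb3 1.604-fold and Klhdc3 1.26-fold higher and Socs2, an inhibitor of growth hormone signalling, 1.51-fold lower. Of 20 CUL4 adaptors 7 were higher and 2 lower, with Dcaf11 at 1.45-fold, Dcaf6 at 1.36-fold, Det1 at 1.51-fold and Dcaf4 at 1.41-fold. With scaling by library size alone these 4 lists had 2 higher and 12 lower, 2 and 7, 2 and 10, and 4 and 6.

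Muscle RING ligases and atrophy regulators had 8 of 14 tested higher and 0 lower, against 20.9% and 22.1% of all tested genes. At an unadjusted p under 0.05 and by limma 0 were lower, and by DESeq2 1 was lower. Trim54 and Trim55, close relatives of Trim63, rose 1.58-fold and 1.43-fold. Trim72, a membrane repair gene, rose 1.58-fold, and Stub1, a chaperone-linked ligase gene, rose 1.37-fold. Foxo1 and Foxo3, transcription factors known to drive Fbxo32 in wasting muscle, had log2 fold changes of -0.17 and 0.01 and did not pass. Foxo4, also on the list, measured 61.45, 55.3, 55.6, 58.5 and 51.4 CPM in PBS. In 4FM3 it measured 63.5, 67.1, 65.0, 68.2 and 66.9 CPM, every library above every PBS library. The part of these genes in the level of Fbxo32 was not tested. Among 17 known partners of the muscle adaptors 5 were higher and 2 lower, beside the same 20.9% and 22.1% of all tested genes. Flna (1.67-fold) was among the lower, and Nebl (1.37-fold) and Lmod2 (1.28-fold), both of the thin filament, were among the higher. With scaling by library size alone these 2 lists had 5 higher and 2 lower, and 1 higher and 4 lower.

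**Figure D5:**
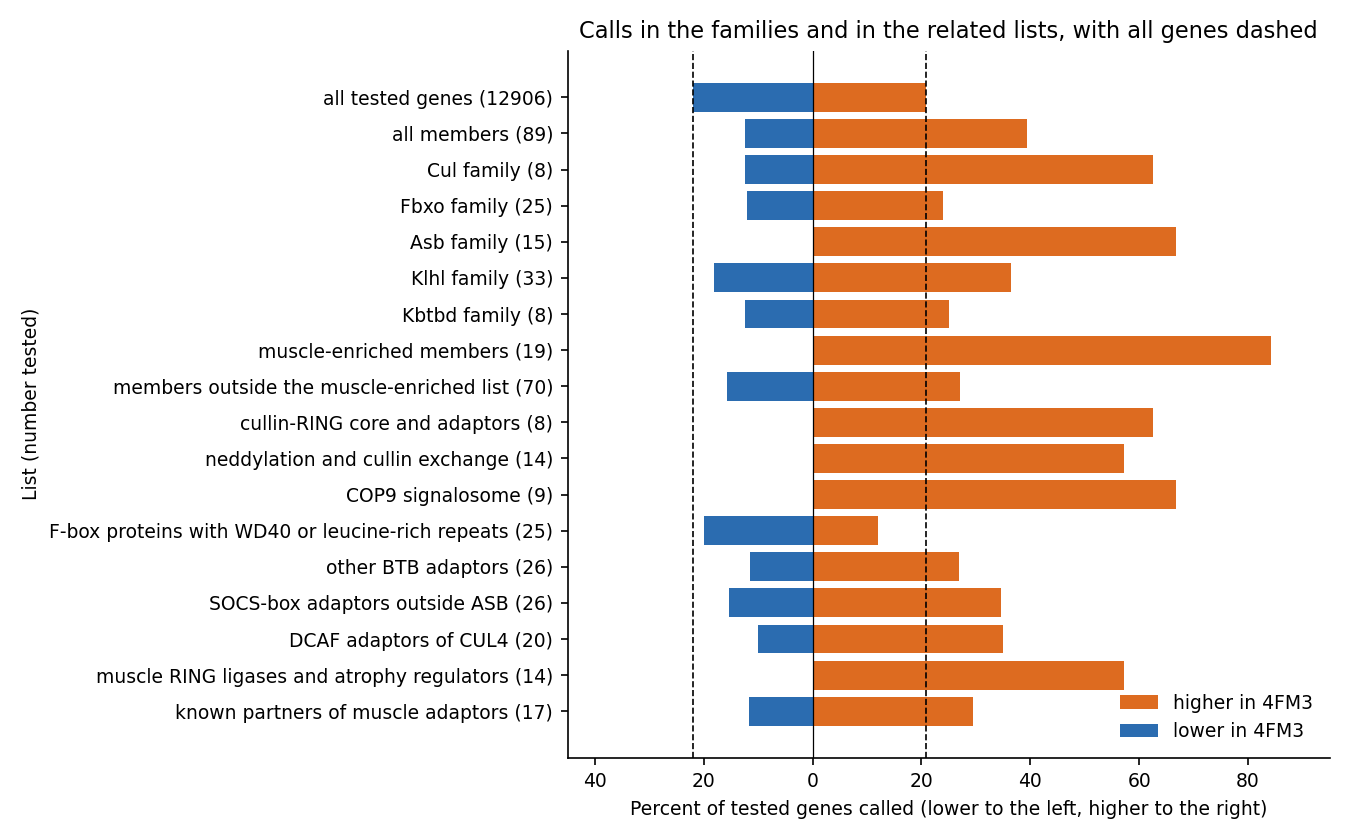
Percent of tested genes called higher (orange, to the right) and lower (blue, to the left) in 4FM3 for all tested genes, the members by family and the 9 related lists, with the number tested in brackets. Dashed lines mark all tested genes at 20.9% higher and 22.1% lower, and the muscle-enriched members reach 84.2% higher.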

How the data were processed

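Total RNA (500 ng) was depleted of ribosomal RNA and made into directional libraries, per the labels' protocols. The genome build was mm10, per the submitters' processing notes; the sources used here do not give the aligner, counter, annotation or strand setting. The deposited table held whole-number read counts per gene, and only these counts were used, not the normalized and transformed columns beside them. In 26 rows, with 0.131% to 0.161% of a library's counts, a date stood in place of a symbol.

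Counts were filtered with filterByExpr by group, scaled by TMM and tested with edgeR 4.0.16 in R 4.3.3 (quasi-likelihood, robust, two-sided, no covariate), with Benjamini-Hochberg adjustment over 12906 genes at 0.05. The biological coefficient of variation was 14.5%. The test was checked on simulated counts. DESeq2 1.42.0, limma 3.58.1 (voom), other scalings and filters, a replicate block and left-out libraries were alternatives. Replicate numbers did not pair the samples by the correlation of their deviations.

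Members and lists were chosen with earlier results of these data known. Named were all tested cullins and muscle-enriched members, in each adaptor family the 6 smallest p-values and all calls of at least 1.5-fold, and up to 4 genes per related list; 2 genes of these lists are not reported here. The remaining lower calls, Asb8, Klhl8, Klhl9, Trim63, Cand1, Cand2, Sftpc, Myh1, Fbxo5, Foxo genes and the partners Flnc, Neb, Lmod3 and Des that fall outside this rule were chosen after their values were seen. Positions and exon lengths came from GENCODE M21 (107 members matched) and promoter sequences from RefSeq GRCm38.p6 (88 members matched).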

Additional observations from a re-analysis of the deposited data

Results flagged for a closer look

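Each group of 5 libraries of the 45 named members was examined for a library far from the others, 90 groups in all, and 3 were found. Chance alone flags about 1 group in 20. Cul4b was low in 4FM3 replicate 1, at 25.9 CPM, where the other 4FM3 libraries lay between 30.1 and 31.2 CPM. Fbxo18 was low in PBS replicate 5, at 75.9 CPM, where the other PBS libraries lay between 81.4 and 83.2 CPM. Fbxo3 was high in 4FM3 replicate 3, at 147.4 CPM, where the others lay between 110.9 and 121.4 CPM. No cause was tested for any of them.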

How the results depend on the processing

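Of the 35 members called higher, 23 kept the call in every one of 20 alternative settings but the test against a 1.5-fold change, and of the 11 called lower, 2 did (Klhl29 and Klhl42). No called member changed sign. The count of higher members was 31 to 38 and that of muscle-enriched members 14 to 17 when single libraries were left out. The count of lower members was 2 to 8 then, 25 with scaling by library size alone, 5 with no filter on low counts, 5 with DESeq2, 2 without PBS replicates 2 and 3, and 3 without these and 4FM3 replicates 2 and 5. Over all genes the lower count was 2846 in the main fit, 2643 with no filter and 2768 with DESeq2. It was 2206 to 2991 without single libraries and 2852 with the replicate number as a block. Without PBS replicates 2 and 3 it was 1668, and without these and 4FM3 replicates 2 and 5 it was 2251. The replicate numbers are shared between groups but same-numbered libraries did not deviate together (correlations from -0.0448 to 0.0595, and PBS replicate 2 alone correlated best with its own number); with the replicate number as a block 5 members were lower and 35 higher. Against a 1.5-fold change (edgeR's glmTreat) 0 members were higher, muscle-enriched ones included (13 at an unadjusted p under 0.05, 10 of them muscle-enriched), 1 was lower, and 194 of all genes were called. Over all genes 5546 were called, 3521 without PBS replicates 2 and 3 and 4573 to 5831 without single libraries. With library size alone 1540 genes were higher and 4967 lower (23.7% of calls higher, against 48.7%). The Cul9 log2 fold change ranged from -0.0622 to 0.014 without single libraries and changed sign without PBS replicate 1 (0.006), PBS replicate 4 (0.014) or 4FM3 replicate 3 (0.012). The cause of these shifts was not tested. Low counts limit the called members with both means under 10 CPM, Asb4, Asb12, Kbtbd13, Klhl3, Fbxo17 and Klhl36.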
